A study of Bos taurus with 8 samples.

Results

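The genes described here are 5 cytokine genes and 1 enzyme gene of inflammation: TNF, IL1B, IL6, IL10, IFNG and PTGS2. They were found by their Ensembl identifiers, a rule that uses no measured value, and all 6 of 6 were found among the 24596 genes listed in each table. The series measured gene expression by RNA sequencing in peripheral blood mononuclear cells (PBMCs, the lymphocytes and monocytes of blood) of cattle, and its title asks whether 2 kinds of cattle differ in their response to heat. The 4 groups were crossbred cattle at day 0, before heat, crossbred cattle at day 7 of heat, Tharparkar cattle (an Indian zebu breed) at day 0, and Tharparkar cattle at day 7. RNA of 5 animals was pooled for every group, and the labels call the 2 files of each pool replicates. The labels tag all 4 groups with heat stress, and the day 0 groups are taken as unheated because the treatment protocol says that they preceded the heat. The breeds behind the cross, the animals' age and sex, and the temperature reached are not given in the sources used here.

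TNF and IL1B encode the early cytokines that monocytes release on activation, and both act through NF-kB, the transcription factor that also drives their own genes. IL6 is a further product of the same response and induces acute phase proteins in the liver. IL10 encodes the cytokine that restrains monocytes and macrophages, IFNG encodes the interferon that T cells and NK cells make to activate macrophages, and PTGS2 encodes the inducible cyclooxygenase that commits arachidonic acid to prostaglandins, which mediate fever and pain. Among mononuclear cells of blood, monocytes are the main source of IL1B and PTGS2 transcripts.

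Total expected counts ranged from 5173115 to 8593506 per file. The ratio of the median chi-square between the 2 files of a group to that expected of independent reads was between 0.0762 and 0.112, where independent reads of 1 library give 1. The files of every group thus differed by less than sampling noise and were counted as 1 sample (n = 1 per group), so the differences have no replicate check, no p-value is given, and variation among animals is unknown. All intervals are 95% intervals that cover counting error only. On the first principal component of all 11711 tested genes, which held 56.0% of the variance, the libraries scored 43.3 (crossbred day 7), 13.1 (Tharparkar day 0), -20.7 (crossbred day 0) and -35.7 (Tharparkar day 7), so that neither the breeds nor the days lay together. Markers of blood cell types were not analysed here, since no source used here pairs further identifiers with gene names. In bulk RNA, fewer cells of a type and less RNA per cell cannot be told apart.

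Of the 6 genes, 4 passed the filter on low counts: TNF, IL1B, IL10 and PTGS2, each of them above its limit of 1.37 CPM (counts per 1000000, here of the unscaled library total) in all 4 libraries. IL6 and IFNG were below it in all 4, with highest unscaled values of 1.07 and 1.35 CPM. Across genes, levels were compared as TPM (transcripts per 1000000, a per-length unit). IL1B had the highest TPM of the 6 in every library and TNF the next. In every library IL10 followed, then PTGS2. IL6 and IFNG were lowest, and TPM values of the 6 spanned from 0 for IL6 in crossbred at day 0 to 533.67 for IL1B in crossbred at day 7.

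IL1B (ENSBTAG00000001321) was among the abundant transcripts of these cells. Its expected counts in files 1 and 2 were 3622.07 and 3603.54 in crossbred at day 0 and 6247.91 and 6210.5 in crossbred at day 7. In Tharparkar they were 3445.82 and 3427.87 at day 0 and 1280.71 and 1254.99 at day 7. The files of a group lay close together, and no file of one group overlapped those of another. After TMM scaling (a correction of library size for composition) the group levels were 418 CPM (404 to 431) in crossbred at day 0, 719 (701 to 737) in crossbred at day 7, 551 (533 to 570) in Tharparkar at day 0 and 250.2 (237 to 264) in Tharparkar at day 7. By TPM, IL1B ranked 427th of 14252 genes above 0 in crossbred at day 0, 245th of 14680 in crossbred at day 7, 346th of 13884 in Tharparkar at day 0 and 683rd of 13655 in Tharparkar at day 7. Its counts were not whole in any of the 8 files, which means that some reads were split with a similar sequence, so its level carries an uncertainty that the intervals do not hold. Counts of the other 5 genes were whole in all 8 files.

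TNF (ENSBTAG00000025471) gave 797 and 800 counts in the files of crossbred at day 0, and 1291 and 1270 at day 7. In Tharparkar the files held 984 and 999 at day 0, against 219 and 220 at day 7. The scaled levels were 92.3 CPM (86.0 to 98.9) and 148 (140 to 156) in crossbred, and 159 (149 to 169) and 43.3 (37.8 to 49.4) in Tharparkar, at day 0 and day 7. Tharparkar at day 7 was the lowest library for TNF, as for IL1B, and it was also the library with the fewest counts in all, 5201318; the part of depth beyond the scaling was not tested. The highest TNF level was that of Tharparkar at day 0 by TMM-scaled CPM, but that of crossbred at day 7 by TPM (113 against 96.4). In unscaled CPM the files of crossbred at day 7 were also higher (162 and 161, against 146 and 150). After TMM scaling, the log2 difference between these libraries, 0.11 (-0.015 to 0.23), lay within counting error. The other neighbours in the order of TNF levels, and all neighbours in that of IL1B, differed beyond counting error.

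IL6 (ENSBTAG00000014921) was close to the limit of detection. It had 0 counts in both files of crossbred at day 0, and 9 and 8 counts at day 7. A count of 0 allows up to 3 counts or 0.347 CPM as a limit on the upper side alone, and the 95% Poisson interval, which is shared between both sides, ends at 3.69 counts or 0.426 CPM. Tharparkar had 3 counts in both files at day 0 and 1 in both at day 7. IL6 was higher in crossbred at day 7 than at day 0, where the counting interval of the log2 ratio had a lower limit of 0.88 and, with 0 counts at day 0, no upper one. Its ratio of crossbred to Tharparkar at day 7 was 4.97, with a counting interval from 0.678 to 219, so a difference was not detectable at this depth. Both Tharparkar libraries were at or under 3 counts, and no ratio is given between them.

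IL10 (ENSBTAG00000006685), the anti-inflammatory cytokine, had between 14 and 59 counts. Files 1 and 2 gave 53 and 57 counts in crossbred at day 0, 59 and 52 in crossbred at day 7, 36 and 34 in Tharparkar at day 0, and 14 and 20 in Tharparkar at day 7. The crossbred files of the 2 days overlapped, and the Tharparkar files of day 7 lay below all others. Its scaled levels were 6.36 CPM (4.79 to 8.27), 6.40 (4.83 to 8.32), 5.61 (3.91 to 7.81) and 3.36 (1.95 to 5.37) in the same order. No neighbours in this order differed beyond counting error.

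IFNG (ENSBTAG00000012529) was low in all libraries: 8 and 9 counts in crossbred at day 0, 9 and 9 at day 7, 6 and 6 in Tharparkar at day 0, and 7 and 7 at day 7. Its scaled levels ran from 0.962 CPM in Tharparkar at day 0 to 1.38 (0.555 to 2.85) in Tharparkar at day 7, and all 4 intervals overlapped. The day 7 change in Tharparkar, a log2 value of 0.42, had an interval from -1.28 to 2.37, and that in crossbred, 0.063, one from -1.45 to 1.62. These intervals leave changes of several fold in either direction undetectable.

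PTGS2 (ENSBTAG00000014127) had the same 126 counts in both crossbred files at day 7, and 125 and 124 at day 0. The Tharparkar files held 76 and 75 at day 0, against 29 and 30 at day 7. The scaled levels were 14.4 CPM (12.0 to 17.1) and 14.5 (12.1 to 17.3) in crossbred at day 0 and 7, and 12.1 (9.53 to 15.2) and 5.82 (3.91 to 8.34) in Tharparkar. As for IL10, crossbred at day 0 and day 7 and Tharparkar at day 0 were neighbours within counting error. Only the step from Tharparkar at day 0 to day 7 lay beyond it.

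**Figure D1:**
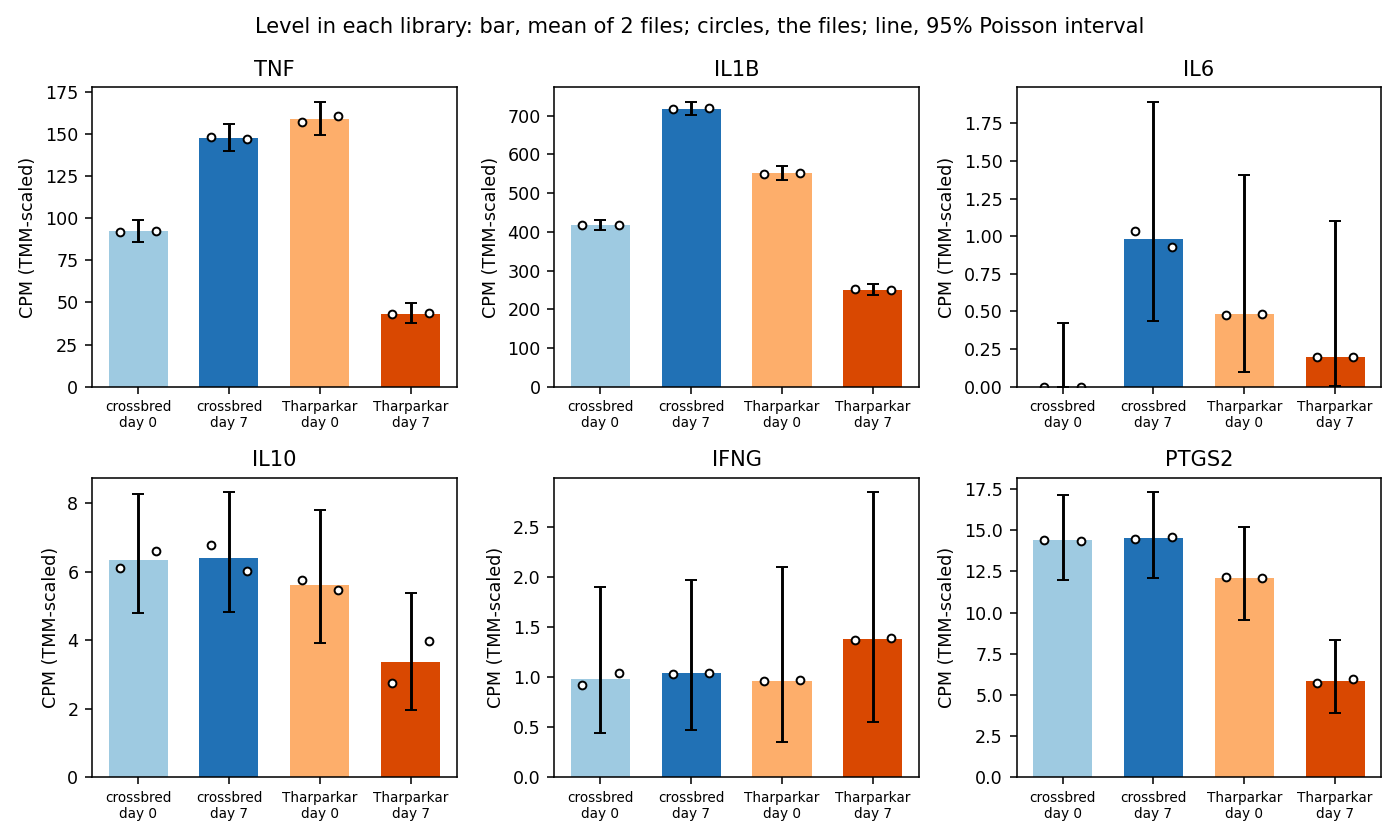
Level of each of the 6 genes in TMM-scaled CPM (y axis, from 0) in the 4 libraries (x axis); bars are the mean of the 2 files of a group, open circles the files, and lines the 95% Poisson interval of the count. TNF, IL1B, IL10 and PTGS2 are lowest in Tharparkar at day 7 (43.3, 250.2, 3.36 and 5.82 CPM), while the intervals of IFNG overlap in all 4 libraries.

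The first comparison was day 7 against day 0 in crossbred cattle. IL1B and TNF were higher at day 7, by log2 values of 0.78 (0.72 to 0.84) and 0.68 (0.55 to 0.81), or 1.72-fold and 1.60-fold. IL10 and PTGS2 had log2 values of 0.010 (-0.55 to 0.58) and 0.015 (-0.35 to 0.38). None of the 4 tested genes passed a log2 value of 1 in size, against 7.49% of all tested genes that were higher and 5.35% that were lower by that much. The counting interval lay above 0 for IL1B and TNF, which 27.9% of all tested genes also showed. Intervals narrow with more counts, and shares of genes by interval, here and below, were not matched on level. A lower value than that of TNF was found for 85.2% of tested genes, and a lower one than that of IL1B for 88.4%.

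In Tharparkar cattle the day 7 library was lower for all 4 tested genes. TNF had a log2 value of -1.87 (-2.09 to -1.66), which is 3.65-fold lower, and 0.640% of tested genes had a lower one. IL1B had a log2 value of -1.14 (-1.23 to -1.05), or 2.20-fold lower. PTGS2 had -1.02 (-1.72 to -0.43), or 2.03-fold lower. IL10 had -0.70, with an interval from -1.67 to 0.13 that holds 0. Thus 3 of the 4 tested genes were lower by a log2 value of at least 1, against 4.53% of all tested genes, and their median was -1.08 against -0.011 for all tested genes. The counting interval lay below 0 for the same 3 genes, against 18.7% of all tested genes. PTGS2 lay at the threshold: its value was -0.96 with total counts, -0.81 with TPM, -0.82 with FPKM and -0.99 without replicate 1 of Tharparkar at day 7, which leaves 2 of 4.

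**Figure D2:**
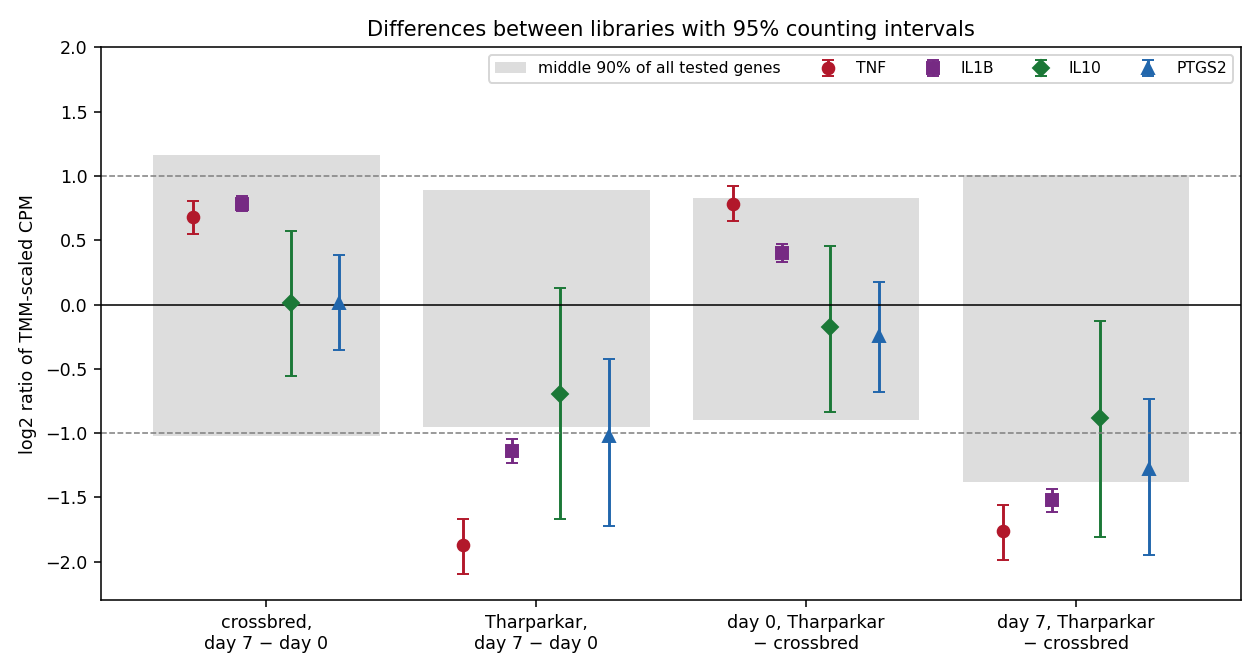
Log2 ratio of TMM-scaled CPM (y axis) for the 4 genes that passed the filter in the 4 comparisons of 2 libraries (x axis), with 95% exact counting intervals; the grey band holds the middle 90% of all tested genes and dashed lines mark log2 values of 1 and -1. TNF and IL1B are above 0 in crossbred (0.68 and 0.78) and below -1 in Tharparkar (-1.87 and -1.14), and IL10 and PTGS2 are near 0 in crossbred.

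The day 7 changes of the breeds were then set against each other. The Tharparkar change minus the crossbred change was -2.55 for TNF, -1.92 for IL1B, -1.04 for PTGS2 and -0.71 for IL10 on the log2 scale. At -1 or below were 3 of 4 genes, against 15.1% of all tested genes. With TPM and FPKM the PTGS2 value was -0.91 and -0.93. TNF and IL1B were the 2 genes with a counting interval above 0 in crossbred and below 0 in Tharparkar, a pattern that 10.4% of all tested genes had. Opposite signs of the 2 changes were found for all 4 tested genes, against 63.4% of all tested genes. Without replicate 1 of crossbred at day 0, or without replicate 1 of crossbred at day 7, the crossbred change of IL10 was -0.042 or -0.075, which leaves 3 of 4. The difference between the breeds was not tested against variation between animals, which these pools do not show.

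**Figure D3:**
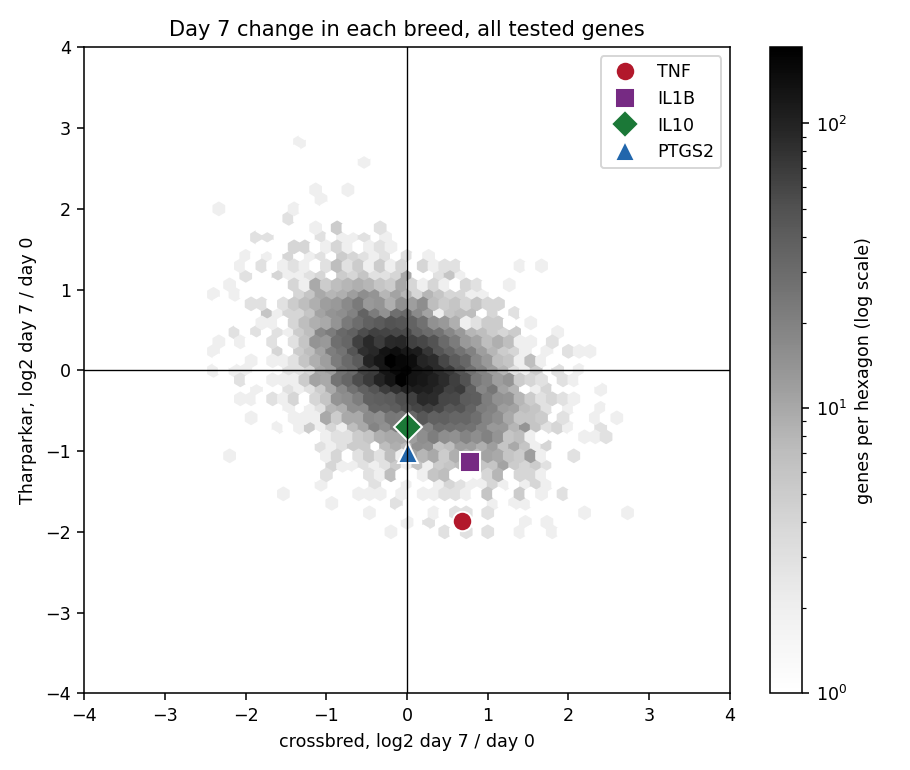
Log2 change from day 0 to day 7 in crossbred (x axis) and in Tharparkar (y axis) for all tested genes, shaded by the number of genes per hexagon on a log scale, with the 4 genes marked; 9 of 11711 genes lie beyond the range of 4 shown. TNF (0.68, -1.87) and IL1B (0.78, -1.14) lie at the lower right, and PTGS2 and IL10 lie below the centre, near 0 on the x axis.

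Between the breeds before heat, TNF and IL1B were higher in Tharparkar, by log2 values of 0.78 (0.65 to 0.92) and 0.40 (0.33 to 0.47). IL10 and PTGS2 had values of -0.17 (-0.83 to 0.46) and -0.24 (-0.68 to 0.18). None of the 4 passed a log2 value of 1, against 3.10% of all tested genes that were higher and 3.92% that were lower by that much, and 21.2% of all tested genes had an interval above 0. The IL1B difference depended on the scaling, with 0.28 with total counts and 0.16 with TPM, and that of TNF was 0.54 with TPM.

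At day 7 all 4 tested genes were lower in Tharparkar, each with a counting interval below 0, which 25.7% of all tested genes had. TNF was 3.39-fold lower, at a log2 value of -1.76 (-1.98 to -1.56), and IL1B 2.87-fold lower, at -1.52 (-1.61 to -1.43). PTGS2 was 2.43-fold lower, at -1.28 (-1.95 to -0.73). IL10 had a log2 value of -0.88 (-1.81 to -0.13). At least 1 log2 unit lower were 3 of 4 genes, against 9.79% of all tested genes. IL10 passed that limit too with total counts (-1.04), TPM (-1.12) and FPKM (-1.03), and without replicate 2 of Tharparkar at day 7 (-1.14), while without replicate 1 of that group it was -0.65. This comparison shares the Tharparkar day 7 library with the change within Tharparkar and the crossbred day 7 library with the change within crossbred, so it is no separate evidence.

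Ratios of 2 genes within a library do not depend on how libraries are scaled. TNF counts per 100 IL1B counts were 22.1 (20.4 to 23.9) in crossbred at day 0 and 20.6 (19.3 to 21.8) at day 7. They were 28.8 (26.9 to 31.0) in Tharparkar at day 0 and 17.3 (14.9 to 19.995) at day 7. The ratio at day 7 was 0.600 of that at day 0 in Tharparkar (0.510 to 0.707) and 0.930 in crossbred (0.843 to 1.03). The decrease of TNF in Tharparkar thus exceeded that of IL1B beyond counting error, while counting error does not separate their increases in crossbred.

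The ratio of PTGS2 to IL1B was lower at day 7 in crossbred cattle. IL1B itself was higher there, by a log2 value of 0.78, while PTGS2 was at 0.015, within counting error of 0. PTGS2 counts per 100 IL1B counts were 3.45 (2.86 to 4.12) in crossbred at day 0 and 2.02 (1.68 to 2.41) at day 7, a ratio of 0.587 (0.455 to 0.764). In Tharparkar they were 2.20 (1.73 to 2.76) and 2.33 (1.56 to 3.35), a ratio of 1.06 (0.673 to 1.66). The intervals of these ratios in the breeds overlap, and their difference was not tested. The ratio of PTGS2 to TNF at day 7 was 0.631 (0.483 to 0.832) of that at day 0 in crossbred. In Tharparkar it was 1.76 (1.10 to 2.83). These opposite directions are set by TNF, with log2 changes of 0.68 in crossbred and -1.87 in Tharparkar. PTGS2 itself had 0.015 and -1.02. IL10 counts per 100 IL1B counts went from 1.52 to 0.891 in crossbred, a ratio of 0.585 (0.399 to 0.875). In Tharparkar they went from 1.02 to 1.34, a ratio of 1.32 (0.689 to 2.42). The log2 change of IL10 itself in crossbred was 0.010, within counting error of 0.

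PTGS2 and IL10, an enzyme and a cytokine, had proportions to each other that counting error did not separate. PTGS2 counts per 100 IL10 counts were 226 (164 to 317) in crossbred at day 0, 227 (164 to 317) in crossbred at day 7, 216 (143 to 332) in Tharparkar at day 0 and 174 (92.5 to 336) in Tharparkar at day 7. All 4 intervals overlapped. They are wide enough to hide a change of 1.5-fold in crossbred, where the ratio of day 7 to day 0 was 1.003 with an interval from 0.622 to 1.60, and a larger one in Tharparkar, where it was 0.804 (0.376 to 1.79).

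**Figure D4:**
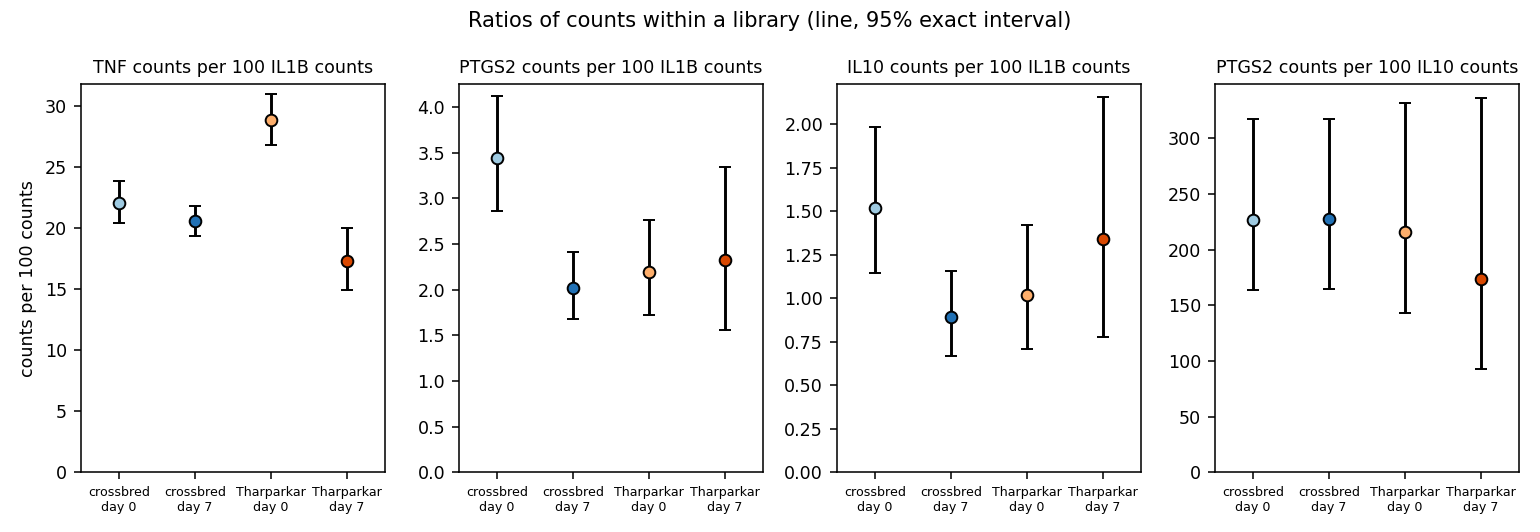
Counts of one gene per 100 counts of another within each library (y axes, from 0) for the 4 libraries (x axes), with 95% exact intervals. TNF per IL1B is highest in Tharparkar at day 0 (28.8). PTGS2 and IL10 per IL1B are highest in crossbred at day 0 (3.45 and 1.52). There the interval of PTGS2 per IL1B overlaps only that of Tharparkar at day 7, and the interval of IL10 per IL1B overlaps those of all other libraries. The intervals of PTGS2 per IL10 overlap in all 4 libraries.

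The 4 tested genes also differed in how their levels were ordered over the libraries. The variation of a gene over 4 libraries can be divided among the contrast of days, that of breeds, and that of the libraries of opposite breed and day (crossbred at day 7 with Tharparkar at day 0, against the other pair). The last contrast held 73.1% of the sum of squares of TNF and 72.8% of that of IL1B, against 50.5% summed over all tested genes. For IL10 and PTGS2 it held 24.1% and 24.4%. The contrast of breeds was their greatest, with 53.1% and 52.6%, against 26.9% over all tested genes. Counting error was not carried into these shares. At day 0 the breeds lay within counting error of each other for IL10 and PTGS2. IL1B had the order of libraries that the first principal component also has (crossbred day 7, Tharparkar day 0, crossbred day 0, Tharparkar day 7), which was shared by 10.3% of tested genes and was the most frequent of the 24 possible orders; the part of this wide pattern in the IL1B and TNF values was not tested. IL10 and PTGS2 shared another order with 5.38% of tested genes, and TNF another with 3.44%. These orders rest in part on steps within counting error: the first step of TNF, all steps of IL10 and all but the last of PTGS2. By TPM, TNF had the same order as IL1B.

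The spread of the 4 log2 levels was 0.86 (SD over libraries) for TNF, above that of 95.2% of tested genes, 0.65 for IL1B, above 89.0%, 0.61 for PTGS2, above 86.9%, and 0.42 for IL10, above 70.9%. As a measure of likeness, the root mean square distance between the centred log2 levels of 2 genes was taken over the 4 libraries. The distance was 0.16 between PTGS2 and IL10, 0.26 between TNF and IL1B, and 0.48 between TNF and IL10. Counting error was not carried into these distances, and that of IL10 is wide, so they give no ranking of the pairs. Of 7762 other genes with a mean of at least 10 CPM, 14 lay within 0.2 of TNF, 117 within 0.2 of IL1B and 34 within 0.2 of PTGS2, and 302 of 7763 lay within 0.2 of IL10. The nearest to TNF was ENSBTAG00000025130, at 0.046, with mean counts of 179.5, 302, 224.5 and 46.5 in crossbred at day 0 and 7 and Tharparkar at day 0 and 7. The nearest to IL1B was ENSBTAG00000008293, at 0.036, with 840.5, 1387, 806.5 and 281 counts. The files pair neither with a gene name.

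**Figure D5:**
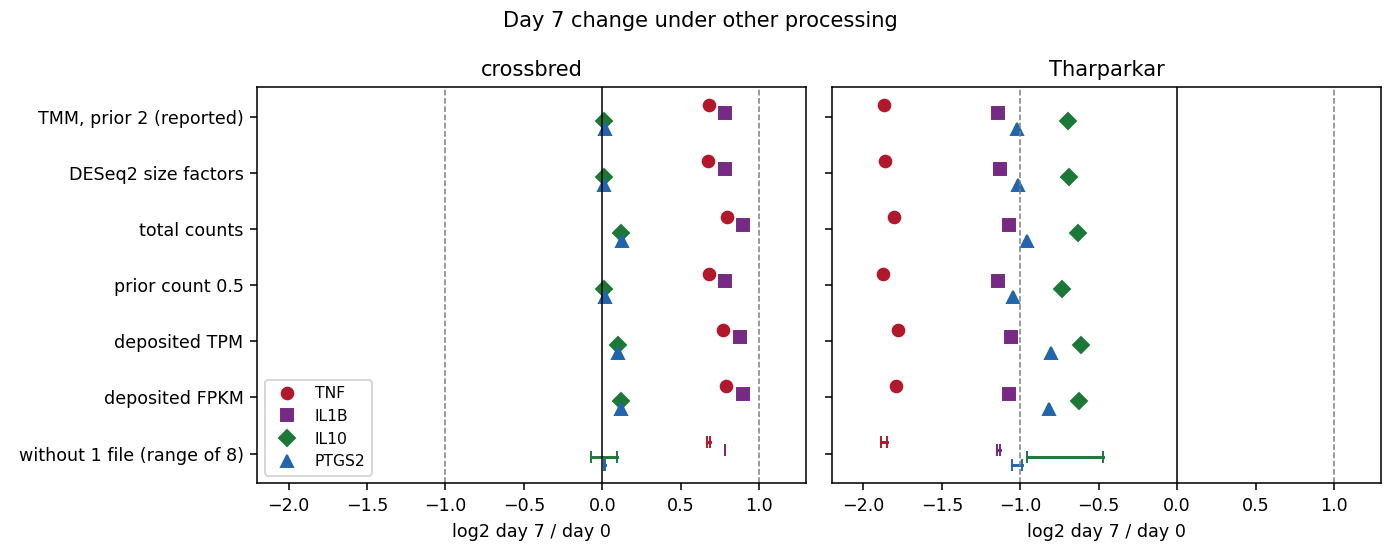
Log2 change from day 0 to day 7 (x axes) of the 4 genes in crossbred (left) and Tharparkar (right) under the scalings and units named on the y axis, with the range over leaving out each of the 8 files in the last line; dashed lines mark log2 values of 1 and -1. TNF and IL1B stay below -1 in Tharparkar under each one shown, while PTGS2 crosses -1 with total counts (-0.96), TPM (-0.81), FPKM (-0.82) and without 1 file (-0.99).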

How the data were processed

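Per the submitters' processing notes, Bowtie2 and RSEM were used; their versions, the genome build and the annotation are not given in the sources used here, so no coordinates are printed. The pooled total RNA had integrity numbers above 8, per the labels' protocols. The deposited tables give expected counts (reads per gene estimated by the authors, with ambiguous reads split), TPM, which the authors scaled to a sum of 1000000 per file and per length, and FPKM, which the authors scaled per kilobase and 1000000 reads. The expected counts were averaged over the 2 files of a group. Genes were filtered with filterByExpr, scaled with TMM and converted to log2 CPM with a prior count of 2 (edgeR 4.0.16). Calls were made at a log2 value of 1 in size. Intervals of levels are exact Poisson, those of log2 ratios and of within-library ratios exact Clopper-Pearson, and those of changes in a ratio exact conditional odds ratio intervals on rounded counts (scipy 1.17.1), while the change itself is the ratio of the unrounded levels. Mean counts need not be whole and entered the first 3 kinds as they are. The steps were tested on simulated data.

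The set of 6 genes was proposed, and all lists and tests were chosen, with earlier results of these data known, although the rule that finds the genes uses no measured value. The named genes were all 6, plus the single nearest identifier for TNF and for IL1B. Lists of receptors, NF-kB, JAK-STAT and prostaglandin genes, of cell type markers and of promoter motifs were written by symbol. The reference table matched 0 of 24596 identifiers and holds no sequence, so these lists have no result and no sequence is shown. Alternatives were DESeq2 1.42.0 size factors, total counts, a prior count of 0.5, TPM and FPKM as log2 of the value plus 0.5, other filters, and leaving out each file.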

Additional observations from a re-analysis of the deposited data

Results flagged for a closer look

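The day 7 change had the opposite sign in the breeds for all 4 genes that passed the filter, as for 63.4% of all tested genes, and this difference was not tested, since each breed and day is 1 pool. The Tharparkar change minus the crossbred change was -2.55 for TNF, -1.92 for IL1B, -1.04 for PTGS2 and -0.71 for IL10 on the log2 scale. For PTGS2 and IL10 the crossbred change (0.015 and 0.010) lay within counting error of 0, so that the opposite sign is that of the point values only, and that of IL10 turned without replicate 1 of either crossbred group (-0.042 and -0.075).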

How the results depend on the processing

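No paired analysis was possible because RNA of 5 animals was pooled in every group. The 2 files of a group differed by less than sampling noise and counted as 1 library, so no result comes from a test. For the 5 genes other than IL6, 25 log2 values were recomputed under each alternative. None that was past 1 log2 unit changed its sign. The 20 values from 2 libraries were held to their counting intervals, and the 5 differences of changes to a range combined from the intervals of both changes. All 25 stayed within these with DESeq2 size factors, a prior count of 0.5 and without 1 file. Leaving out 1 file could hardly move a value that far, because the file that stays is nearly the same. It is thus no check of these values. IL1B left its interval with total counts, TPM and FPKM: the crossbred change was 0.90, 0.88 and 0.90, the difference between breeds at day 0 was 0.28, 0.16 and 0.28, and at day 7 it was -1.69, -1.78 and -1.68. TNF left it with TPM, at 0.54 between breeds at day 0 and -2.01 at day 7. The changes of within-library ratios between libraries stayed in their intervals with TPM and without 1 file. Neither could well turn out otherwise, because gene length largely cancels in such a change and the files of a group are nearly alike. Without a filter, 1 gene in place of 0 passed 1 log2 unit in crossbred, and 1 in place of 0 between breeds at day 0. Both times this was IL6, whose fitted value rests on the prior count. IL6 values without a filter in the other comparisons are not given here. By the counting interval, 2 genes differed in crossbred and 2 between breeds at day 0 in place of 0.

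Counts over all tested genes moved more. Where a mean of 10 CPM was required, higher and lower genes numbered 370 and 203 in crossbred, and 91 and 189 in Tharparkar. Between breeds they numbered 123 and 98 at day 0, and 185 and 523 at day 7. For the difference of changes they numbered 624 and 932. This filter left 7769 genes in place of 11711, and the part of that in these counts was not tested. With no filter, higher and lower genes numbered 746 and 878 in Tharparkar, and 581 and 787 between breeds at day 0. TPM and FPKM gave 405 and 371 lower genes in crossbred, 279 and 287 lower in Tharparkar, 146 and 196 higher between breeds at day 0, and 265 and 314 higher at day 7; the cause was not tested. The share of changed genes that were higher was 58.3% in crossbred with TMM, 69.2% with total counts, 67.8% with TPM and 70.2% with FPKM. In Tharparkar it was 45.3% with TMM, 57.9% with TPM and 56.0% with FPKM. Between breeds it was 44.2% with TMM at day 0 and 31.3%, 20.5% and 32.9% with total counts, TPM and FPKM, and at day 7 it was 34.2%, 20.7%, 15.3% and 20.4%. Against TMM, the median of all genes shifted by 0.11 in crossbred with total counts. Between breeds it shifted by -0.12 (day 0) and -0.16 (day 7) with total counts, and by -0.24 and -0.25 with TPM. Depth limits IL6 and IFNG, with at most 9 counts per file, most.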

Other observations

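The files of a group differed more for IL10 than for PTGS2. IL10 files 1 and 2 differed by 4, 7, 2 and 6 counts in crossbred at day 0 and 7 and Tharparkar at day 0 and 7, while those of PTGS2, with more counts in every library, differed by at most 1. In Tharparkar at day 7 the IL10 files differed by 35.3% of their mean. The chi-square between them, 1.12, was larger than that of 98.5% of 10600 genes with at least 20 counts. A value of that size is within what independent reads would give, so the rank shows no difference of the files beyond sampling noise. In the other groups the IL10 chi-square was larger than that of 79.4% (crossbred at day 0), 90.8% (crossbred at day 7) and 54.3% (Tharparkar at day 0) of genes. For PTGS2 the share was between 7.71% and 46.3% over the 4 groups. IL10 has the shortest listed length of the 6 genes, 748 bases, and PTGS2 the longest, 3489 bases; the part of length in this was not tested.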
